A study of Mus musculus with 18 samples.

Results

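The genes described here make cholesterol and fatty acids under the control of the sterol regulatory element-binding proteins (SREBPs). They were chosen by name from textbook pathway membership, with earlier results of these data known. Counts of them set beside all genes therefore describe the list and do not test it. All 32 were found among the 55401 genes counted in every library. They fall into 4 regulators (Srebf1, Srebf2, Scap and Insig1), 19 genes of the sterol arm and 9 genes of the fatty acid arm. The sterol arm runs from acetyl-CoA to the mevalonate products (Acat2, Hmgcs1, Mvk, Pmvk, Mvd, Idi1 and Fdps), through squalene to lanosterol (Fdft1, Sqle and Lss) and from there to cholesterol (Cyp51, Tm7sf2, Msmo1, Nsdhl, Hsd17b7, Ebp, Sc5d and Dhcr7), with the sterol carrier Stard4. The fatty acid arm holds enzymes that supply acetyl-CoA (Acly and Acss2), build the chain (Acaca, Fasn and Elovl6) and desaturate it (Scd1, Scd2, Fads1 and Fads2). The study sequenced RNA from mouse macrophages given lipopolysaccharide (LPS, a bacterial cell wall component) at 5 ng/ml for 6 h, in 6 groups of 3 libraries. It asked what mutation, knockdown or overexpression of SMIM30, a small membrane protein, does to these cells. WT and Mut were peritoneal macrophages of wild-type and SMIM30-Mut mice. Mut-Control and Mut-SMIM30-OE were macrophages of SMIM30-Mut mice that received a control adenovirus or a SMIM30-overexpression adenovirus 6 h after seeding and 24 h before LPS, so both carry the mutation and both saw a virus. The groups siControl and siSMIM30 were IC-21 cells, an established line of transformed mouse peritoneal macrophages, transfected with control or SMIM30 siRNA 24 h before LPS. The animals' strain was C57BL/6J. All 6 groups had LPS, so nothing here compares LPS with its absence. The mutated bases, the virus insert, the promoter that drives it, the age of the mice and whether the 3 libraries of a group came from separate mice were not given in the sources used here, so the tests see only how much these libraries vary, which may be technical.

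SREBPs are made as precursors in the membrane of the endoplasmic reticulum, where the escort protein SCAP holds them. When sterols are plentiful, INSIG proteins keep SCAP in place. When sterols run short, SCAP carries the precursor to the Golgi, proteases release its amino-terminal part, and this enters the nucleus and activates genes of lipid synthesis and uptake. SREBP2, from Srebf2, acts mainly on cholesterol genes and SREBP1, from Srebf1, mainly on fatty acid genes, and Insig1 is itself a target, which closes a feedback loop. Macrophages take up lipoproteins and dead cells, so their sterol genes are known to respond strongly to the cholesterol load and to the culture medium.

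SREBPs bind the sterol regulatory element, usually together with the factors NF-Y, which binds CCAAT, and SP1, which binds the GC box GGGCGG. Promoter sequences are shown for 4 sterol genes and 2 fatty acid genes that the results turn on, to let the sequence be read beside the expression values. They are the bases before the start of the gene, written 5′ to 3′ along the gene, from RefSeq (build GRCm38.p6). Capitals mark each CACNCCAC (the core of the sterol regulatory element) and each CCAAT, on either strand, so that ATTGG is a CCAAT on the opposite strand.
Hmgcs1, chr13:119690101-119690350, plus strand: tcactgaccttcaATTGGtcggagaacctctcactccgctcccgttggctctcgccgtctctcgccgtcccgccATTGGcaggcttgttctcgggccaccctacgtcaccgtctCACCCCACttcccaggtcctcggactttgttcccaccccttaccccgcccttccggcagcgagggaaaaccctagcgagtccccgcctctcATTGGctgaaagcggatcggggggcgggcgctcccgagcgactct
Mvd, chr8:122443423-122443672, minus strand: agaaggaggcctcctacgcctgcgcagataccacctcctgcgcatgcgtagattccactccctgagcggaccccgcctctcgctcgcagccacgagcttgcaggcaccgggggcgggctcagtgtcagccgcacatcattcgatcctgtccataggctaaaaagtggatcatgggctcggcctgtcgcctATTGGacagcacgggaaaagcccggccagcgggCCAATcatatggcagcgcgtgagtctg
Lss, chr10:76531355-76531587, plus strand: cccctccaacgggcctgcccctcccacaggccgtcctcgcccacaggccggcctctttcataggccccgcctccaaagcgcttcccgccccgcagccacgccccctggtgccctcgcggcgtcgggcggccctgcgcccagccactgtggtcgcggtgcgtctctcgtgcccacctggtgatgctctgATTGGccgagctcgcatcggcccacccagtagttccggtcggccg
Hsd17b7, chr1:169969242-169969455, minus strand: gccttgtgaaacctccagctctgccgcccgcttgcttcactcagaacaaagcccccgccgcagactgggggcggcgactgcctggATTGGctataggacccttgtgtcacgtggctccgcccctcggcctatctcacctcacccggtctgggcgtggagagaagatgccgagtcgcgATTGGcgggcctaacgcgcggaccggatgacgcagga
Fasn, chr11:120824548-120824797, minus strand: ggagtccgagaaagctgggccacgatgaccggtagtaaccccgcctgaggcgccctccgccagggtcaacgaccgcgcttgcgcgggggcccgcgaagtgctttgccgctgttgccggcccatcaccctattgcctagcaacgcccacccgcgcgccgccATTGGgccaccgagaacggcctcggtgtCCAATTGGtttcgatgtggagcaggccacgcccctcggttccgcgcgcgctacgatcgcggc
Elovl6, chr3:129532136-129532354, plus strand: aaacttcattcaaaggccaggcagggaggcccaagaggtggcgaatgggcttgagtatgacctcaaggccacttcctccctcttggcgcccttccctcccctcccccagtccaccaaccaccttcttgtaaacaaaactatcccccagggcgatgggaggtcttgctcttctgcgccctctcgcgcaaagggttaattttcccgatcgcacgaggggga
Of the 32 genes, 25 had a RefSeq promoter entry, and windows of 250 bases before each start were searched on both strands. For Lss, Hsd17b7 and Elovl6 the stretch printed is shorter than the window searched, because it stops at the annotated gene start, and 1 of the 3 CCAAT matches of Hsd17b7 falls outside it. A CCAAT was found in 14 of 15 sterol arm genes, 2 of 6 fatty acid arm genes and 3 of 4 regulators, against 37.5% of all 27025 genes with an entry. A GGGCGG was found in 14 of 15, 3 of 6 and 4 of 4, against 35.4%. The core CACNCCAC was found in 3 of the 25 (Hmgcs1, Acat2 and Insig1), against 6.05% of all genes, and the longer TCACNCCAC, which contains it, in Hmgcs1 only, against 1.22%. In Hmgcs1 the core began 136 bases before the start, with 3 CCAAT matches in the same window, while the Elovl6 window held none of these CCAAT or CACNCCAC letters. A match is a run of letters, not a measured binding site.

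Library totals ranged from 6855245 to 13456857 counts, and 3 counts, used as the floor for a group with no counts, correspond to 0.223 to 0.438 CPM, counts scaled to a fixed library total. Levels below are CPM after scaling for library composition (TMM). The targeted gene was read as 2610001J05Rik, a name known from general knowledge to stand for mouse Smim30, since the files do not pair the names. It was 14.3 to 15.8 CPM in siControl and 6.41 to 8.61 CPM in siSMIM30 (0.51-fold; edgeR adjusted p = 6.17e-08), 49.5 to 53.5 CPM in Mut-Control and 60.4 to 65.0 CPM in Mut-SMIM30-OE (1.21-fold, adjusted p = 0.0052), and 51.7 to 60.9 CPM in WT against 50.6 to 62.3 CPM in Mut (adjusted p = 0.97). Whether its counted exons hold the mutated bases or the virus insert was not given, so the last 2 comparisons do not check those labels. Macrophage markers (7 genes, summed) were 10671 to 13323 CPM in the primary cells, where Lyz2 had the most counts, and 1868 to 2028 CPM in IC-21. Between siControl and WT, 5 of the 7 were lower in IC-21, 1 was higher and 1 did not pass, where 40.2% of all genes were lower and 40.1% higher. Fibroblast markers (7 genes) summed to 244 to 300.5 CPM in WT and Mut, 107 to 130 CPM in Mut-Control, 58.7 to 67.5 CPM in Mut-SMIM30-OE and at most 0.433 CPM in IC-21. B cell markers (4 genes) summed to 6.37 to 7.57 CPM in WT, 3.71 to 5.73 CPM in Mut, 0.460 to 1.25 CPM in Mut-Control, 0.175 to 1.49 CPM in Mut-SMIM30-OE and at most 0.247 CPM in IC-21. T cell, neutrophil and adipocyte markers summed to at most 0.982 CPM in every library. Large peritoneal macrophage markers (6 genes) summed to 8.11 to 16.4 CPM in the primary cells and 5.17 to 7.33 CPM in IC-21. Of the 4 that could be tested between siControl and WT, 2 were lower in IC-21 and 1 higher. Among them, named after their values were seen, Gata6 and Timd4 averaged 4.99 and 3.89 CPM in WT and were at 0 in all 6 IC-21 libraries, while Garnl3 was 0.540 to 1.40 CPM in WT and 3.87 to 4.11 CPM in siControl. Ribosomal RNA took 1.74 to 2.49% of counts in WT and 0.399 to 1.03% in Mut, so it differed between those groups; its part in the results was not tested beyond leaving those genes out.

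The 32 genes together took 0.212 to 0.561% of a library's counts. Per kilobase of exon, Insig1 was the most abundant of them in WT (164 CPM per kb), followed by Scd2 (86.0), Srebf2 (81.6), Hmgcs1 (76.3) and Cyp51 (74.7). Insig1, Hmgcs1 and Cyp51 were also among the 5 highest per kilobase in Mut-Control and in siControl, whereas Scd2 left that list in both. At the low end in WT stood Tm7sf2 (2.00 CPM per kb), Acss2 (2.71) and Elovl6 (3.05). Replicates were close: among members at 5 CPM or more, the median coefficient of variation within a group lay between 3.84% (Mut-SMIM30-OE) and 6.30% (Mut). The least even were Acss2 in Mut-SMIM30-OE (34.7%) and Idi1 in siControl (30.1%). Reads of Fdps, Tm7sf2, Srebf1 and Scd2 are uncertain in part, since each shares exon sequence on its strand with another annotated gene (Gm43738, Vps51, Mir6922 and Mir5114).

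**Figure D1:**
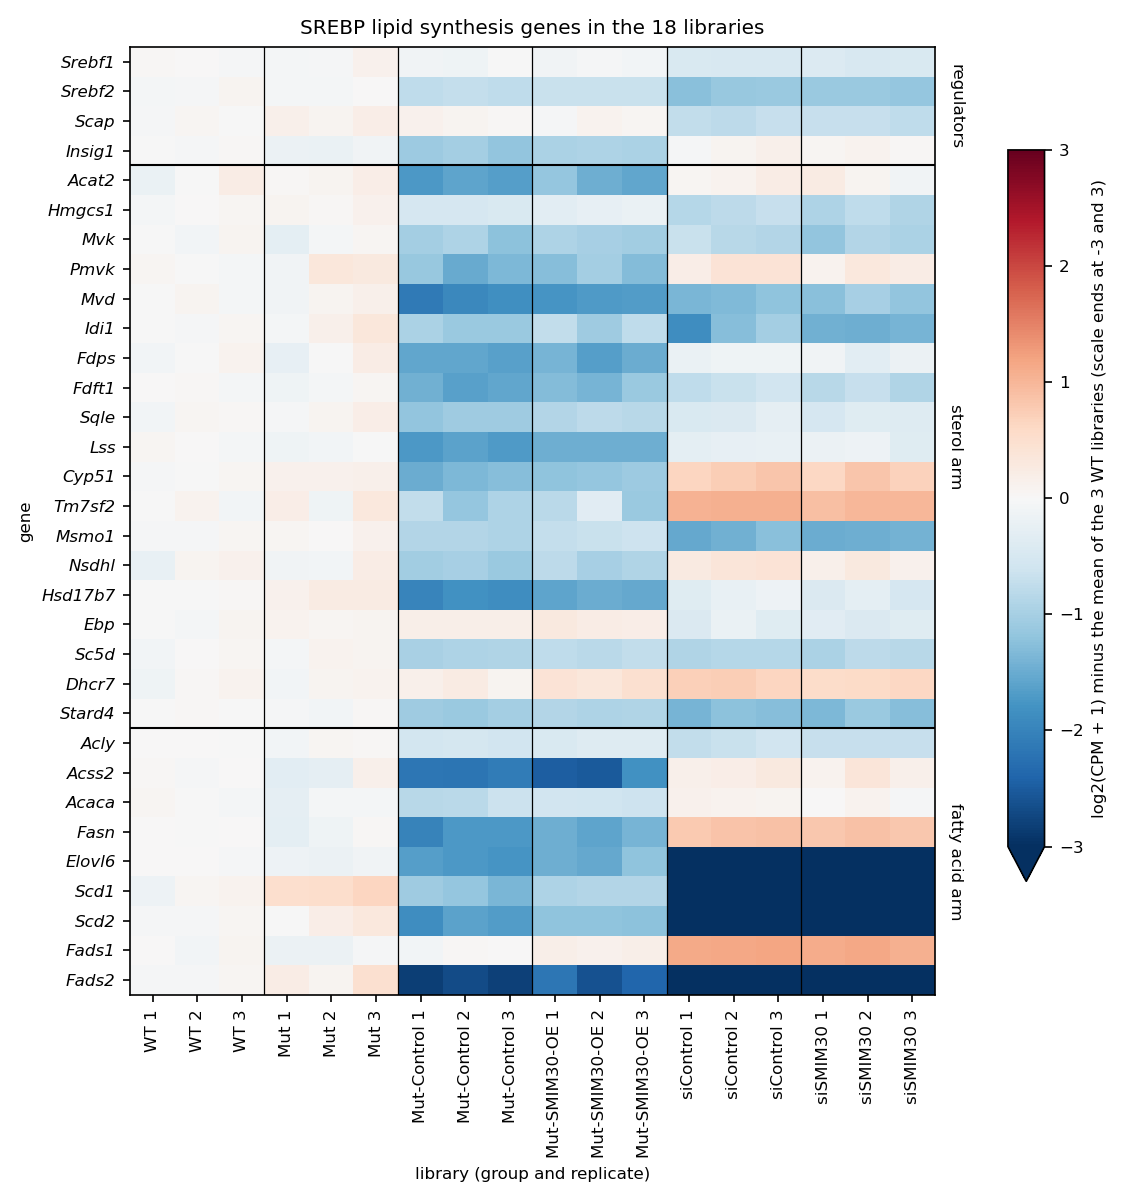
Heat map of the 32 genes (rows, by role) in the 18 libraries (columns); colour is log2(CPM + 1) minus the mean of the 3 WT libraries, and the scale ends at -3 and 3. The control-virus and overexpression libraries are lower than WT for most genes, WT and Mut differ little, and Elovl6, Scd1, Scd2 and Fads2 are at or near 0 in all 6 IC-21 libraries.

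The first comparison asks what the SMIM30 mutation does to these genes in macrophages that received no virus. They differed little between Mut and WT: Scd1 rose, Hsd17b7 rose slightly and Insig1 fell slightly. In all, 2 of 32 genes passed the test as higher and 1 as lower (edgeR quasi-likelihood F test, Benjamini-Hochberg adjusted p under 0.05), where 6.3% of the 12500 genes tested passed in either direction, 3.68% higher and 2.62% lower. In 5 genes all Mut libraries lay above all WT libraries, and in 3 below, against 12.1% and 9.67% of all genes. The median log2 fold change was 0.06 in the sterol arm, -0.13 in the fatty acid arm and -0.01 over all genes tested. The count of fatty acid genes called went from 1 to 2 without Mut replicate 1, when Scd2 rose (0.25, adjusted p = 0.0017), or without Mut replicate 3, when Fasn fell by 0.22 (adjusted p = 0.0070). Of the other cell types' markers, 0 of 6 fibroblast genes passed with edgeR, and of 7 macrophage markers 1 rose and 1 fell.

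Scd1, a desaturase that makes monounsaturated fatty acids, was 45.3, 52.2 and 54.3 CPM in WT and 72.3, 72.6 and 79.6 CPM in Mut. All 3 mutant libraries lay above all 3 wild-type libraries. The log2 fold change was 0.56 ± 0.07 (SE; adjusted p = 4.1e-06), or 1.47-fold. Other desaturases did not pass, and whether their changes differ from that of Scd1 was not tested. Scd2, the other stearoyl-CoA desaturase expressed here, was 461, 460 and 488 CPM in WT and 465, 539 and 586 CPM in Mut, which overlap (log2 fold change 0.17 ± 0.07, adjusted p = 0.18). Fads2, the delta-6 desaturase of polyunsaturated fatty acids, was 27.6, 27.5 and 29.6 CPM in WT and 33.2, 29.9 and 39.9 CPM in Mut, without overlap but short of the threshold (0.28 ± 0.10, adjusted p = 0.10).

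Insig1, the sterol-sensing brake on SCAP, was 502, 499 and 521 CPM in WT and 451, 442 and 470 CPM in Mut. The groups did not overlap, and the log2 fold change was -0.17 ± 0.05 (adjusted p = 0.021). Hsd17b7, a ketosteroid reductase of the late sterol pathway, was 78.8, 78.7 and 81.4 CPM in WT and 87.3, 94.7 and 94.7 CPM in Mut (log2 fold change 0.20 ± 0.06, adjusted p = 0.048). Both of these calls were lost when single libraries were left out, Insig1 without any WT replicate or Mut replicate 1 or 2 (adjusted p 0.057 to 0.149) and Hsd17b7 without any WT replicate or Mut replicate 2 or 3 (0.096 to 0.203), and Hsd17b7 also with DESeq2 (0.147) and limma-voom (0.060). The transcription factors themselves did not pass: Srebf1 was 134 to 139 CPM in WT and 131 to 151 CPM in Mut, and Srebf2 was 563 to 624 CPM in WT and 559 to 594 CPM in Mut. Hmgcs1, which makes HMG-CoA for the mevalonate pathway, gave 0.07 ± 0.05 and Fasn, fatty acid synthase, -0.13 ± 0.06, neither of which passed.

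The second comparison asks what SMIM30 overexpression does in mutant macrophages that all carried a virus. Here the genes moved upward as a group by small amounts. With the overexpression virus, 11 of 32 genes rose and 0 fell, where 0.583% of the 12701 genes tested rose and 0.842% fell (1.43% either way). The log2 fold change was above 0 in 30 of 32 (all but Scap and Acss2), against 50.1% of all genes tested, and in 24 of 32 genes all 3 overexpression libraries lay above all 3 control-virus libraries, against 7.55% of all genes; in none did they all lie below, against 7.49%. The median log2 fold change was 0.22 in the sterol arm and 0.30 in the fatty acid arm, against 0.00 over all genes.

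**Figure D2:**
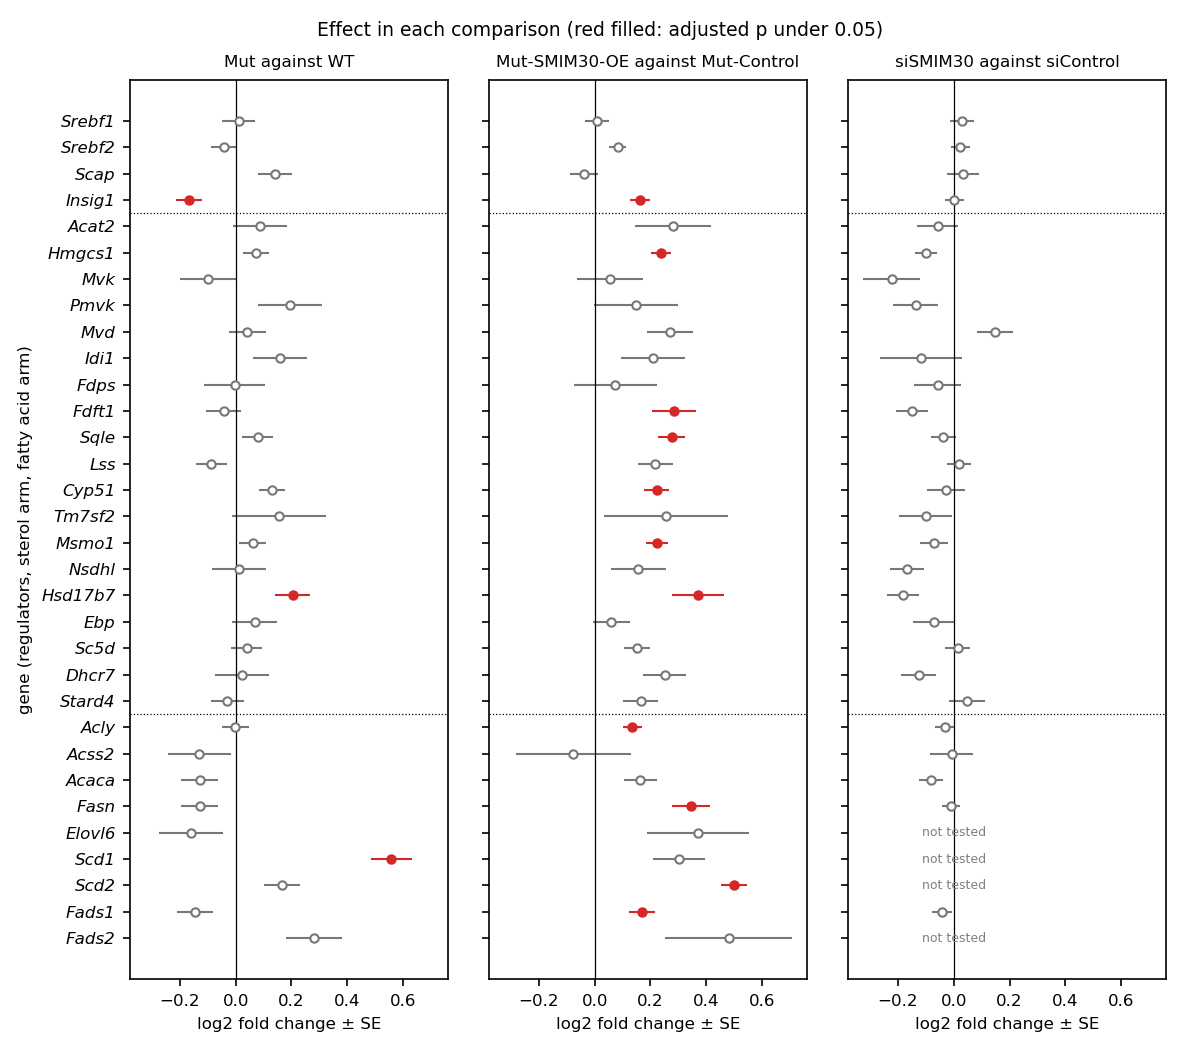
Log2 fold change with its SE for each gene in the 3 comparisons, of SMIM30 mutation, overexpression virus and siRNA. Red filled points passed the adjusted threshold of 0.05 and open points did not. In the middle panel 11 genes passed, all to the right of 0, against 3 in the left panel and none in the right, where 4 genes were not tested.

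In the sterol arm 6 of 19 genes rose. Hmgcs1 was 247, 245 and 254 CPM with the control virus and 280, 294 and 306 CPM with the overexpression virus. The overexpression libraries were all higher, by 0.24 ± 0.03 on the log2 scale (1.18-fold, adjusted p = 3.7e-06). Sqle, squalene epoxidase and a slow step of the pathway, was 81.5, 88.6 and 87.4 CPM against 100.3, 107 and 103 CPM. The difference was 0.28 ± 0.05 (adjusted p = 0.00023). Msmo1, which removes methyl groups from lanosterol products, was 146, 145 and 141 CPM against 162, 169 and 173 CPM (0.22 ± 0.04, adjusted p = 0.00019). Its libraries did not overlap between the groups either. Cyp51, lanosterol demethylase, was 117, 129 and 135 CPM against 142, 146 and 155 CPM (0.22 ± 0.04, adjusted p = 0.0018).

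Fdft1, squalene synthase, was 35.4, 30.9 and 32.5 CPM with the control virus and 39.5, 36.5 and 44.6 CPM with the overexpression virus (0.28 ± 0.08, adjusted p = 0.046). Hsd17b7 was 19.5, 21.9 and 21.2 CPM against 25.8, 27.9 and 26.8 CPM (0.37 ± 0.09, adjusted p = 0.018), the largest difference of the sterol arm. The 13 other sterol genes did not pass, and all had estimates above 0, from 0.05 for Mvk, mevalonate kinase, to 0.28 for Acat2, the cytosolic thiolase. Among them Lss, lanosterol synthase, was 47.8, 51.7 and 48.5 CPM against 57.1, 57.3 and 57.6 CPM without overlap (0.22 ± 0.06, adjusted p = 0.058). Mvd, mevalonate decarboxylase, was 24.8, 28.4 and 30.6 CPM against 32.2, 33.8 and 34.4 CPM (0.27 ± 0.08, adjusted p = 0.090). Of the promoters printed above, those of Hmgcs1 and Hsd17b7 belong to genes that rose, and those of Mvd and Lss, which hold CCAAT too, to genes that did not pass. Of the fatty acid genes below, Fasn, with 3 CCAAT matches, rose. Elovl6, with none, did not pass at an estimate of 0.37. Among those not printed, Acly had no CCAAT and rose, Acss2 had 1 and did not pass, and Acaca and Fads2 had none and did not pass. Whether the letters go with the changes was not tested.

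In the fatty acid arm 4 of 9 genes rose. Scd2 was 128, 155 and 147 CPM with the control virus and 204, 202 and 199 CPM with the overexpression virus. The gap between the groups was wider than the spread within either, and the log2 fold change of 0.50 ± 0.05 (1.41-fold, adjusted p = 9.1e-08) was the largest among the 32 genes. Fasn was 76.4, 92.3 and 93.5 CPM against 112, 103 and 117 CPM (0.35 ± 0.07, adjusted p = 0.011). Acly, which turns citrate into acetyl-CoA for both arms, was 245, 251 and 244 CPM against 263, 275 and 274 CPM (0.13 ± 0.03, adjusted p = 0.021). Acly had the smallest called difference of the 11. Fads1, the delta-5 desaturase, was 94.8, 103 and 101 CPM against 113, 110 and 113 CPM (0.17 ± 0.05, adjusted p = 0.042). Acaca, acetyl-CoA carboxylase, Elovl6, an elongase, Scd1 and Fads2 gave 0.16, 0.37, 0.30 and 0.48 on the log2 scale without passing, also with no overlap between the groups. Acss2, which makes acetyl-CoA from acetate, was 5.32, 5.23 and 5.64 CPM against 4.17, 3.94 and 7.09 CPM and did not follow.

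Of the regulators Insig1 rose, from 238, 248 and 222 CPM to 264, 267 and 261 CPM (0.16 ± 0.04, adjusted p = 0.0052). Srebf1 stood at 128, 126 and 135 CPM against 127, 135 and 129 CPM. Srebf2 was 343, 356 and 344 CPM against 370, 368 and 368 CPM, without overlap but not past the threshold (0.08 ± 0.03, adjusted p = 0.23). Scap was 99.8, 97.4 and 93.6 CPM against 89.5, 98.3 and 95.2 CPM.

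**Figure D3:**
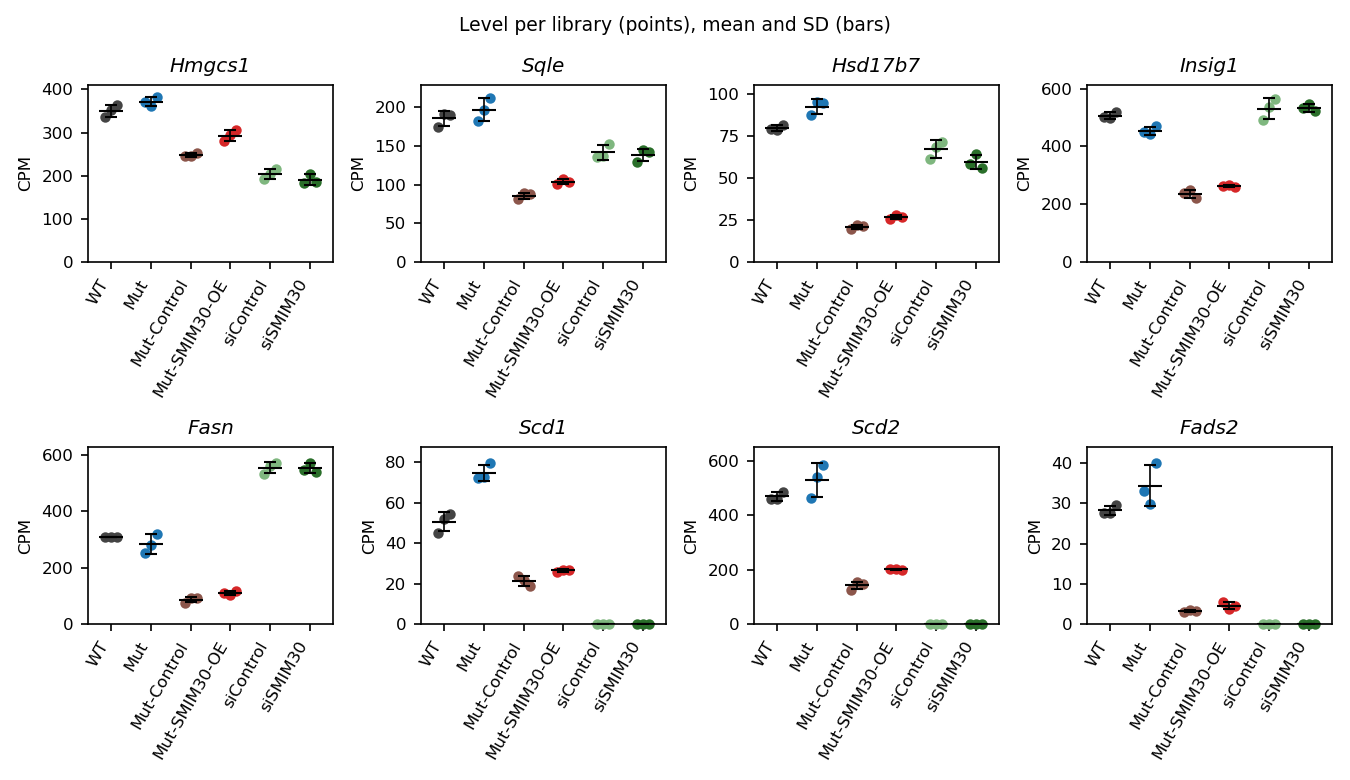
CPM of 8 genes in each library (points), with the group mean and SD (bars, n = 3); each panel has its own axis from 0. Scd2 at 199 to 204 CPM with the overexpression virus lies above 128 to 155 CPM with the control virus, and both lie below the 460 to 586 CPM of WT and Mut.

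How many of these calls are made depends on the test. At an unadjusted p under 0.05, 22 of 32 genes were higher and 0 lower. The share of all genes at that threshold was not counted, so these 22 cannot be set against a background. DESeq2, which called 62 genes in all, called 5 of the 32 as higher and limma-voom 9, and neither called any lower. The total that limma-voom called over all genes is not given here. Hmgcs1, Sqle, Msmo1 and Scd2 passed under all 15 alternatives tried. The calls of Fdft1, Fads1, Acly and Hsd17b7 were lost under 7, 7, 5 and 4 of them, DESeq2 included, and those of Insig1, Cyp51 and Fasn under 3 each. With single libraries left out, the sterol arm had 3 genes called without Mut-SMIM30-OE replicate 3, and the fatty acid arm had 1 without that library and 2 without Mut-Control replicate 1 or Mut-SMIM30-OE replicate 1 or 2. Non-macrophage markers moved in the same comparison: 6 of 6 tested fibroblast markers fell (median log2 fold change -1.13, from -1.30 to -0.71), the 1 mesothelial marker that could be tested fell by 2.54, and of 7 macrophage markers 2 rose and 5 did not pass. Of all genes tested, 0.842% fell and 0.583% rose. No fibroblast marker that was tested was at 0 in either group. Its part in the rise of the lipid genes was not tested, and in bulk RNA fewer cells of a type and less RNA per cell cannot be told apart.

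The third comparison asks what SMIM30 knockdown does in IC-21 cells. None of the 28 members that could be tested passed, where 3.48% of the 13576 genes tested did, 2.39% as higher and 1.09% as lower. At an unadjusted p under 0.05, where the share of all genes was not counted, 1 was higher and 6 lower with edgeR. DESeq2 and limma-voom called 0. Of all genes called, 68.6% were higher, a share that became 54.3% with scaling by library total alone. The median log2 fold change was -0.07 in the sterol arm and -0.03 over the 5 tested fatty acid genes. Estimates were below 0 in 15 of 19 sterol genes and 5 of 5 fatty acid genes, while the 4 regulators were between 0.00 and 0.03. Over all genes tested, 49.2% of estimates were above 0, with a median of -0.002 and quartiles of -0.093 and 0.083. Both arm medians lay between these quartiles.

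Hsd17b7 had the lowest adjusted p, at 61.4, 68.5 and 71.4 CPM in siControl and 58.4, 64.3 and 55.9 CPM in siSMIM30. The ranges overlap, and the log2 fold change was -0.18 ± 0.06 (adjusted p = 0.059, and 0.012 to 0.293 over the alternatives). It passed without siControl replicate 1 (0.012) or siSMIM30 replicate 2 (0.023), and without the latter Hmgcs1 passed too (-0.15, adjusted p = 0.040). Hmgcs1 was 192, 205 and 215 CPM against 183, 205 and 186 CPM (-0.10 ± 0.04, adjusted p = 0.21). Mvd went the other way in its estimate, 42.8, 44.2 and 47.9 CPM against 46.4, 55.1 and 48.3 CPM (0.15 ± 0.06, adjusted p = 0.25). Insig1 was 493, 536 and 566 CPM against 532, 549 and 522 CPM, with an estimate of 0.00 ± 0.03. In 3 genes (Mvk, Tm7sf2 and Dhcr7) all knockdown libraries lay below all controls, against 8.29% of genes tested.

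Whether the effects differ between these settings was tested directly; no 2 of the 3 comparisons share a library. The virus effect exceeded the mutation effect for 3 of 32 genes, against 1.53% of 13422 genes (none lower, against 2.31%, and 3.84% either way): Insig1 by 0.33 ± 0.06 (adjusted p = 0.00028), Lss by 0.30 ± 0.08 (0.016) and Fads1 by 0.32 ± 0.08 (0.010). Insig1 had thus fallen in the mutant and risen with the overexpression virus, though each of these calls was lost under some alternatives. The difference between its 2 effects passed under every alternative tried. With single libraries left out, the count of sterol genes went from 1 to 0 (without WT replicate 1), 2 (without WT replicate 3 or Mut-SMIM30-OE replicate 2) or 4 (without Mut replicate 3), and that of fatty acid genes from 1 to 0 (without Mut-Control replicate 1), 2 (without WT replicate 3, Mut replicate 2 or Mut-Control replicate 3), 3 (without Mut replicate 1) or 4 (without Mut replicate 3). The virus effect exceeded the siRNA effect for 8 of 28 genes, and fell short of it for none, against 0.711% and 1.1% of 15056 genes (1.81% either way). These were Hmgcs1 (0.34 ± 0.06), Fdft1 (0.44), Sqle (0.32), Msmo1 (0.30), Hsd17b7 (0.56 ± 0.11), Dhcr7 (0.38), Fasn (0.36) and Fads1 (0.22), with adjusted p from 4.0e-05 to 0.025. The median difference in the sterol arm was 0.30, against 0.01 over all genes. The Dhcr7 difference was lost under 6 alternatives (adjusted p 0.051 to 0.104): without Mut-Control replicate 1 or 3, Mut-SMIM30-OE replicate 3, siControl replicate 2 or siSMIM30 replicate 1, and with all 18 libraries in 1 fit. Fdft1 lost its call without Mut-SMIM30-OE replicate 3 (0.082) and Msmo1 without siControl replicate 3 (0.077). Of the fatty acid genes, 2 passed, 1 without Mut-Control replicate 1 or Mut-SMIM30-OE replicate 2 or 3, and 0 without siControl replicate 2 or 3 or siSMIM30 replicate 1 or 3. Between siRNA and mutation 1 of 28 genes differed, against 1.25% of 14804 genes lower, 1.26% higher and 2.51% either way: Hsd17b7 by -0.39 ± 0.09 (adjusted p = 0.0064).

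The lipid genes were much lower in the virus experiment than in the other primary cells. Between Mut and Mut-Control, both mutant macrophages under LPS, 27 of 32 genes fell and 0 rose, where 26.5% of the 12798 genes tested fell, 27.1% rose and 53.6% passed in either direction. These groups differ in the virus, in time in culture and in the part of the study they belong to, which cannot be told apart. The median log2 fold change was -1.25 in the sterol arm and -1.75 in the fatty acid arm, against 0.00 over all genes. Summed over the sterol arm, levels were 2169 to 2361 CPM in Mut and 1031 to 1059 CPM in Mut-Control. Summed over the fatty acid arm they were 1372 to 1639 and 637 to 694 CPM.

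The size of the fall varied between genes of the pathway, and whether it follows the order of the steps was not tested. Mvd fell from 104, 118 and 124 CPM to 24.8, 28.4 and 30.6 CPM (-2.06 ± 0.08) and Hsd17b7 from 87.3, 94.7 and 94.7 CPM to 19.5, 21.9 and 21.2 CPM (-2.16 ± 0.08). Hmgcs1, an early step, fell less, from 371, 362 and 382 CPM to 247, 245 and 254 CPM (-0.59 ± 0.04). Acat2, the step before it, went from a mean of 14.7 CPM per kb in Mut to 4.08 in Mut-Control. Ebp, a sterol isomerase, and Dhcr7, which makes cholesterol from its last precursor in one branch, did not pass and were 41.9 to 43.6 against 45.7 to 45.9 CPM and 26.8 to 30.8 against 30.2 to 34.3 CPM. The 17 sterol genes that fell did so by 0.59 to 2.16 on the log2 scale.

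Fads2 had the largest fall of all 32, from 33.2, 29.9 and 39.9 CPM to 3.14, 3.52 and 3.22 CPM (-3.40 ± 0.15, or 10.5-fold). Fads1, which lies in the same gene cluster, was 88.0, 88.1 and 97.6 CPM and then 94.8, 103 and 101 CPM and did not pass (0.11 ± 0.06, adjusted p = 0.12). Acss2 (-2.24), Scd2 (-1.90), Scd1 (-1.81), Elovl6 (-1.75) and Fasn (-1.72) fell by similar amounts, and Acly (-0.57) and Acaca (-0.66) by less. Among the regulators Srebf2 fell by 0.73 and Insig1 by 0.96, while Srebf1 (-0.11, adjusted p = 0.096) and Scap (-0.08) did not pass. Fibroblast markers fell here too, 6 of 6 with a median of -1.21. The 1 mesothelial and the 1 B cell marker that could be tested fell by 1.18 and 4.08, and of 7 macrophage markers 3 rose and 2 fell. Of all genes tested in this comparison, 26.5% fell and 27.1% rose. The part of these other cells was not tested. With the overexpression virus Fasn stood at 103 to 117 CPM, still below the 251 to 319 CPM of Mut.

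**Figure D4:**
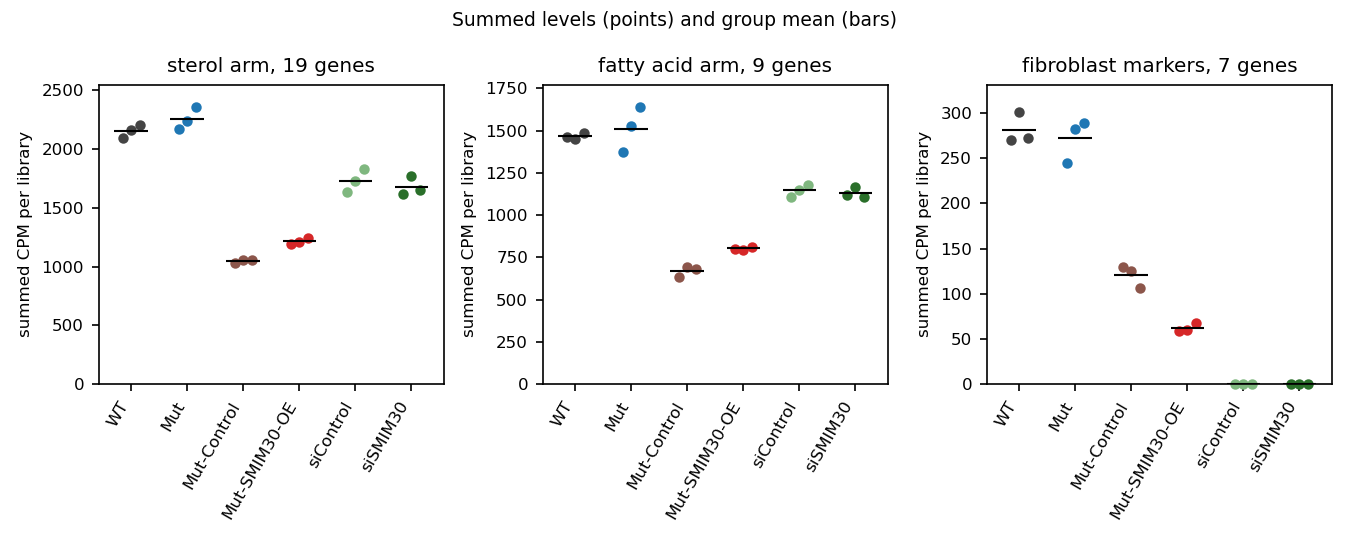
Summed CPM per library (points) and group mean (bars) for the sterol arm, the fatty acid arm and the fibroblast markers. Both arms are lowest in Mut-Control and stand higher in Mut-SMIM30-OE, while the fibroblast sum goes down from 107 to 130 CPM in Mut-Control to 58.7 to 67.5 CPM in Mut-SMIM30-OE.

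IC-21 cells were set against WT only to place their levels, since line, transfection and culture cannot be told apart. Of 32 genes, 10 were higher and 20 lower in siControl, where 40.1% of 14066 genes were higher and 40.2% lower (80.3% in all). These directions rest on the scaling: with library totals alone the median of all genes moved by 0.70 on the log2 scale, and 17 members were higher and 10 lower (all genes, 75.2% of calls higher). The sterol arm median was -0.29 with composition scaling and 0.42 without, and the fatty acid arm median -0.62 and 0.08. Srebf1, Fdps, Fdft1, Sqle, Lss, Hsd17b7, Ebp and Acly changed sign between the 2 scalings. DESeq2 called 7 of the 32 genes as higher and 20 as lower. With it the calls of Insig1 (adjusted p = 0.106), Acaca (0.079) and Acss2 (0.064) were lost.

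A set of genes had almost no reads in IC-21, which does not rest on the scaling. The sizes of the fold values below do rest on it. They use composition factors of 1.40 to 1.42 in siControl and 0.827 to 0.857 in WT, and would be smaller with library totals alone. Scd1 and Fads2 had 0 counts in all 6 IC-21 libraries, while WT had 50.6 ± 4.68 and 28.2 ± 1.17 CPM (SD, n = 3). Against the floor of 3 counts over the 3 siControl libraries, Scd1 was at least 652-fold lower and Fads2 at least 364-fold lower. Elovl6 had 1 count in siControl and 0 in siSMIM30, a 758-fold lower level than WT with a counting interval of 136-fold to 29938-fold. Scd2, at 470 ± 15.4 CPM in WT, had 6 counts in each IC-21 group (3025-fold lower, 1390-fold to 8243-fold, exact Poisson 95% intervals that cover counting error only). The fatty acid arm median is the value of Acly, so it does not depend on how these zeros are scored.

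The other fatty acid genes were present in IC-21. Fasn was 532, 559 and 570 CPM in siControl against 309, 308 and 310 CPM in WT, and Fads1 222, 224 and 228 CPM against 101, 94.1 and 106 CPM, both higher with and without composition scaling. In the sterol arm Cyp51 (516, 548 and 591 against 320, 327 and 342 CPM), Tm7sf2 and Dhcr7 were higher under both scalings, and Msmo1 (92.4, 98.0 and 112 against 264, 263 and 278 CPM), Stard4, a sterol carrier, Idi1 and Mvd were lower under both. Insig1 was 493 to 566 CPM in siControl and 499 to 521 CPM in WT.

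Genes of the same pathways outside the 32 were read from 3 lists. Of 10 genes of SREBP processing and sterol sensing, 0 passed with the mutation, 0 with the virus and 1 with siRNA (Erlin2, 0.22). Over all genes tested, 6.3%, 1.43% and 3.48% passed in these comparisons in either direction. At an unadjusted p under 0.05, where the share of all genes was not counted, edgeR gave 1 higher and 1 lower with the mutation and none with the virus. DESeq2 and limma-voom called 0 in all 3 comparisons, Erlin2 included. The Site-1 and Site-2 proteases Mbtps1 and Mbtps2, which cut SREBPs, gave 0.07 and 0.07 with the mutation and -0.04 and 0.06 with the virus. Of 9 genes of sterol metabolism and transport that are reported here, 2 fell with the mutation: Soat1, which esterifies cholesterol for storage, from 744, 751 and 769 CPM to 579, 597 and 626 CPM (-0.34 ± 0.05, adjusted p = 4.4e-06), and Npc1, which exports cholesterol from lysosomes, from 454, 448 and 483 to 399, 397 and 421 CPM (-0.20 ± 0.05, adjusted p = 0.0073). Of all genes tested, 2.62% fell with the mutation. With siRNA, Npc1 fell (-0.14) and Gramd1b, a sterol transfer protein of membrane contacts, rose (0.13), where 1.09% of all genes fell and 2.39% rose. DESeq2 and limma-voom called neither gene.

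Of 14 genes of fatty acid supply and glycerolipid synthesis, Tecr (0.28), an enzyme of fatty acid elongation, and Acsl1 (0.16), an acyl-CoA synthetase, rose with the mutation. Of all genes 3.68% did, and limma-voom called 1 of the 2. Acsl1 fell with siRNA (-0.12), where 1.09% of all genes fell. With the virus 0 of 13 tested passed with edgeR, DESeq2 or limma-voom, where 1.43% of all genes passed with edgeR. At an unadjusted p under 0.05, where the share of all genes was not counted, 4 were higher. Between Mut and Mut-Control, 4 genes rose and 4 fell of the 10 for SREBP processing, 4 rose and 2 fell of the 9 reported for sterol metabolism, and 3 rose and 9 fell of the 13 tested for fatty acid supply, against 27.1% and 26.5% of all genes. Me1 (-2.84), the malic enzyme that supplies NADPH, and Acsl1 (-2.02) fell with most of the 32 genes. Nr1h3, which encodes the oxysterol receptor LXR alpha, went up from 52.3, 62.1 and 54.8 CPM to 147, 139 and 145 CPM (1.34 ± 0.06), and Soat1 (1.09), Npc1 (0.70) and Lpin1 (1.60), a phosphatidate phosphatase, rose as well.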

How the data were processed

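Strand-specific RNA libraries of 18 samples in 6 groups of 3 were analysed. The authors deposited raw read-pair counts per gene, made with featureCounts 2.0.3 over GENCODE M25 exons with reverse strand, per the file headers; fastp, FastQC, HISAT2 and DESeq2 are named in the submitters' processing notes. No column of other samples was present. Symbols came from GENCODE names, which matched 55141 of 55401 identifiers (260 had none). The 32 members and all lists were chosen with earlier results of these data known. Named were all members, other listed genes that passed a test or stand beside a result, and of the markers the summed level.

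Genes were kept by filterByExpr, scaled by TMM and tested with edgeR 4.0.16 in R 4.3.3 (robust quasi-likelihood F test, 2 groups per fit, Benjamini-Hochberg adjusted p under 0.05 over all genes tested, two-sided); SE is the log2 fold change divided by the square root of F. A difference of 2 effects was tested in 1 fit of their 4 groups, for members that passed the filter in both. Printed CPM used TMM factors over all 18 libraries. Totals per library, 6855245 to 13456857 counts, set the precision; intervals and floors cover counting error only. Alternatives were RLE scaling, library totals alone, no filter, 1 CPM in 3 libraries, DESeq2 1.42.0, limma-voom 3.58.1, all 18 libraries in 1 fit, a replicate block, each replicate left out and, chosen after seeing the data, ribosomal RNA genes left out. The scripts were tested on simulated counts. Replicates differed beyond counting noise (chi-square per gene 1.67 to 5.24), so none was merged. Promoters came from RefSeq (GRCm38.p6), shortened at the GENCODE gene start; entries were found for 25 members. Protein sequences were not used here, and some genes of the sterol list are not reported here.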

Additional observations from a re-analysis of the deposited data

Results flagged for a closer look

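For 17 gene and contrast pairs the effects of 2 of the perturbations differed by a test of the difference itself (edgeR, adjusted over all genes tested). Values are differences of log2 fold changes with SE. The overexpression virus effect exceeded the mutation effect for Insig1 by 0.33 ± 0.06 (adjusted p = 0.00028), Lss by 0.30 ± 0.08 (0.016), Fads1 by 0.32 ± 0.08 (0.010), Npc1 by 0.19 ± 0.05 (0.033) and Soat1 by 0.37 ± 0.05 (3.4e-06). Soat1 and Npc1 had fallen in the mutant and were within 0.03 of 0 with the virus.

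The virus effect exceeded the siRNA effect for Hmgcs1 by 0.34 ± 0.06 (4.0e-05), Fdft1 by 0.44 ± 0.10 (0.0043), Sqle by 0.32 ± 0.07 (0.0021), Msmo1 by 0.30 ± 0.07 (0.0039), Hsd17b7 by 0.56 ± 0.11 (0.00036), Dhcr7 by 0.38 ± 0.10 (0.018), Fasn by 0.36 ± 0.07 (0.0039) and Fads1 by 0.22 ± 0.06 (0.025). The 2 effects were measured in different cells, primary and IC-21.

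The siRNA effect differed from the mutation effect for Hsd17b7 by -0.39 ± 0.09 (0.0064), Soat1 by 0.35 ± 0.06 (0.00033), Tecr by -0.32 ± 0.09 (0.041) and Acsl1 by -0.29 ± 0.06 (0.0043). Hsd17b7 and Acsl1 rose in Mut and were lower with siRNA, where Acsl1 passed and Hsd17b7 did not.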

How the results depend on the processing

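The control-virus and IC-21 counts of calls, both directions together, stayed within 1.5 times under every alternative tried, but with library totals alone the IC-21 calls went from 10 higher and 20 lower to 17 and 10 among the 32 genes, and from 5645 and 5654 to 9176 and 3031 among all genes. The control-virus medians kept their direction. For the mutation, sterol genes called went from 1 to 0 with no filter, DESeq2, limma-voom or the replicate block, fatty acid genes from 1 to 2 with no filter, and all genes from 788 to 1198 with all 18 libraries in 1 fit. For the virus, DESeq2 called 62 genes, 3 sterol and 2 fatty acid, against 181, 6 and 4, and the fit of all 18 libraries 87 genes and 1 fatty acid gene. For siRNA, 1 sterol gene passed with library totals alone, no filter or the block, the fatty acid median was -0.049 with library totals alone, and DESeq2 and the fit of 18 called 284 and 263 of the main 472 genes. For IC-21 against WT, library totals alone gave medians of 0.42 (sterol) and 0.085 (fatty acid) and reversed Srebf1 (0.26), Fdps (0.58), Fdft1 (0.079), Sqle (0.36), Lss (0.49), Hsd17b7 (0.50), Ebp (0.42) and Acly (0.085), and the fit of 18 gave a fatty acid median of -0.66. For virus minus mutation, 2 sterol genes passed with no filter, and 3 fatty acid genes with no filter, DESeq2, limma-voom or the fit of 18, and 2 with the block. For virus minus siRNA, 4 fatty acid genes passed with library totals alone and 0 with the fit of 18, which called 139 genes. Beyond the alternatives' own construction the cause was not tested.

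With single libraries left out, the mutation gave 469 to 957 genes, 0 to 1 sterol and 1 to 2 fatty acid genes. The virus gave 66 (without Mut-SMIM30-OE replicate 3) to 453 genes (without Mut-Control replicate 3), 3 to 8 sterol and 1 to 5 fatty acid genes, and medians of 0.20 to 0.23 and 0.22 to 0.32. The siRNA gave 309 to 422 genes, 0 to 2 sterol genes and a fatty acid median of -0.066 to 0.011. The sterol median of the control virus was -1.35 to -1.16, and the fatty acid median of IC-21 -0.67 to -0.59. Virus minus mutation gave 0 to 4 genes in either arm and a sterol median of 0.13 to 0.22, virus minus siRNA 162 to 372 genes, 0 to 3 fatty acid genes and a sterol median of 0.25 to 0.34, and siRNA minus mutation 267 to 571 genes and a fatty acid median of 0.028 to 0.17.

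The replicate numbers gave no sign of pairing: deviations of same-numbered libraries correlated between -0.12 and 0.08, and of different-numbered ones between -0.14 and 0.10. With 3 libraries per group these values cannot exclude pairing. With the number as a block, the mutation called 782 genes (788 without), the virus 253 (181), siRNA 546 (472), virus minus mutation 515 (515), virus minus siRNA 319 (272) and siRNA minus mutation 410 (372).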
